A study of Mus musculus with 8 samples.

Results

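The 10 genes described here encode the proteins that bring iron into a cell, move it to the mitochondrion, store it, export it and sense it. They were chosen by name for these roles, as the rows of a raw count table that belong to transferrin receptor, Hfe, the iron transporters, the ferritin chains and the iron-regulatory proteins. All 10 were among the 33435 named genes of the table, and all 10 passed the filter on low counts that left 11040 genes for testing. RNA was sequenced from myeloid progenitors (MP) of C57BL/6J mice. The starting cells were hematopoietic stem and progenitor cells (HSPCs) of E14.5 fetal liver. They received Trim27 virus in the first group and GFP control virus in the second, and MP were then sorted from each. There were 4 Trim27 MP libraries and 4 GFP MP libraries, with no uninfected group. The labels do not give the promoter of the virus or the gate of the sort. They also do not say whether libraries derive from different animals or cultures, so each p-value reflects the variation among these 8 libraries, and that variation may be technical only.

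Iron reaches most blood precursors as transferrin, which binds the transferrin receptor at the cell surface and is taken up into endosomes. There the metal is reduced and carried across the membrane, and it is then used in heme and iron-sulfur clusters, kept in ferritin, or sent out through ferroportin. Cells adjust this traffic through iron-regulatory proteins, which bind a short hairpin called the iron-responsive element. Bound in the 5′ untranslated region the proteins block translation, and bound in the 3′ untranslated region they protect the mRNA from decay.

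These hairpins are shown first because they are the sequences through which iron is known to act on several of these mRNAs. Transcripts of GENCODE M21 (genome build GRCm38, whereas the submitters' processing notes name NCBIM37) were searched on the sense strand for a C, then 5 bases, the loop CAGTGN, and 5 bases able to pair with the first 5, a core of 17 bases with G-T pairs allowed. Of 21899 protein-coding genes, each with its longest basic transcript, 0.096% had a match in the 5′ untranslated region and 0.534% in the 3′ untranslated region, whatever the length of these regions. Matches were found in the 5′ region of Fth1 (chromosome 19), Ftl1 (chromosome 7) and Slc40a1 (chromosome 1), and at 4 places in the 3′ region of Tfrc (chromosome 16). Each is printed as DNA from 5′ to 3′ with 6 bases on either side of the core and the loop in capitals, followed by the match in Alas2 (chromosome X), whose mRNA is also known to carry the element.
Fth1, 5′ region: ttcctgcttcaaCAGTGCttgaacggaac
Ftl1, 5′ region: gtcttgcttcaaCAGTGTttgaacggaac
Slc40a1, 5′ region: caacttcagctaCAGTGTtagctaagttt
Alas2, 5′ region: ttggttcgtcctCAGTGCagggcaacagg
Tfrc, 3′ region, match 1: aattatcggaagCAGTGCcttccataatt
Tfrc, 3′ region, match 2: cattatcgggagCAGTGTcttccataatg
Tfrc, 3′ region, match 3: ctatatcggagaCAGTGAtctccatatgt
Tfrc, 3′ region, match 4: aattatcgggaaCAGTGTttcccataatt
No match was found in the transcripts searched for Hfe (chromosome 13), Slc11a2 (chromosome 15), Slc25a37 (chromosome 14), Steap3 (chromosome 1), Aco1 (chromosome 4) or Ireb2 (chromosome 9), which says only that these letters in this pairing were not in them. The counts are per gene and do not separate transcripts of Slc11a2 that differ in their 3′ end.

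Total counts were 10551137 to 16366571 in the Trim27 libraries and 9257889 to 10747794 in the GFP libraries. Trim27 itself was at 292.7 ± 18.4 CPM in Trim27 MP and 180.5 ± 8.52 CPM in GFP MP (SD, n = 4 each). CPM here is the count of a gene per 1000000 of the TMM-scaled library size. Genes with at least 1 count numbered 12962 to 13283 in the Trim27 libraries and 11131 to 11850 in the GFP libraries. All 12 markers of myeloid progenitors on the list had counts, led by Csf2rb, Prtn3 and Mpo, and their summed level was 2332 to 2565 CPM in Trim27 MP and 2136 to 2246 CPM in GFP MP. Of these markers 3 rose and 8 fell, and without Csf2rb the sum was 1199 to 1362 CPM in Trim27 MP and 1658 to 1766 CPM in GFP MP. The difference between the groups was very broad. At an adjusted p under 0.05, 85.5% of the genes tested were called, of which 47.5% of those tested rose and 38% fell, and the groups did not overlap for 80.7%. Rises of at least 2-fold were called for 31.3% and such falls for 16%. The median log2 fold change of all genes tested was 0.14, and 0.44 when libraries were scaled by their size alone, which moved the calls to 6277 rises and 3106 falls, against 5249 and 4193. The spread of the changes was widest among genes of low abundance, and short genes tended to fall and long genes to rise. The median log2 fold change was -0.67 for genes with up to 1000 bases of exon and 0.56 for those of 4000 to 8000 bases.

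All 10 iron genes passed the threshold, where 85.5% of all genes did, so the number called is near the background. Of them 4 rose, namely Tfrc, Slc25a37, Slc40a1 and Aco1, and 6 fell, namely Hfe, Steap3, Slc11a2, Fth1, Ftl1 and Ireb2, although Tfrc turned to a fall with the length trend removed, and Fth1 and Ftl1 lost theirs under other scalings. Their median log2 fold change was -0.20. The groups did not overlap for 9 of the 10, the exception being Ftl1, a share near the 80.7% of all genes. Changes of at least 2-fold were called for Slc40a1 and Slc25a37, which rose, and for Hfe, which fell. With library size alone as scaling 5 rose and 4 fell, because Ftl1 turned to a rise (0.21) and Fth1 did not pass (0.005, adjusted p = 0.904). In bulk libraries, a change in the number of cells of one kind and a change in the RNA per cell cannot be told apart.

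**Figure D1:**
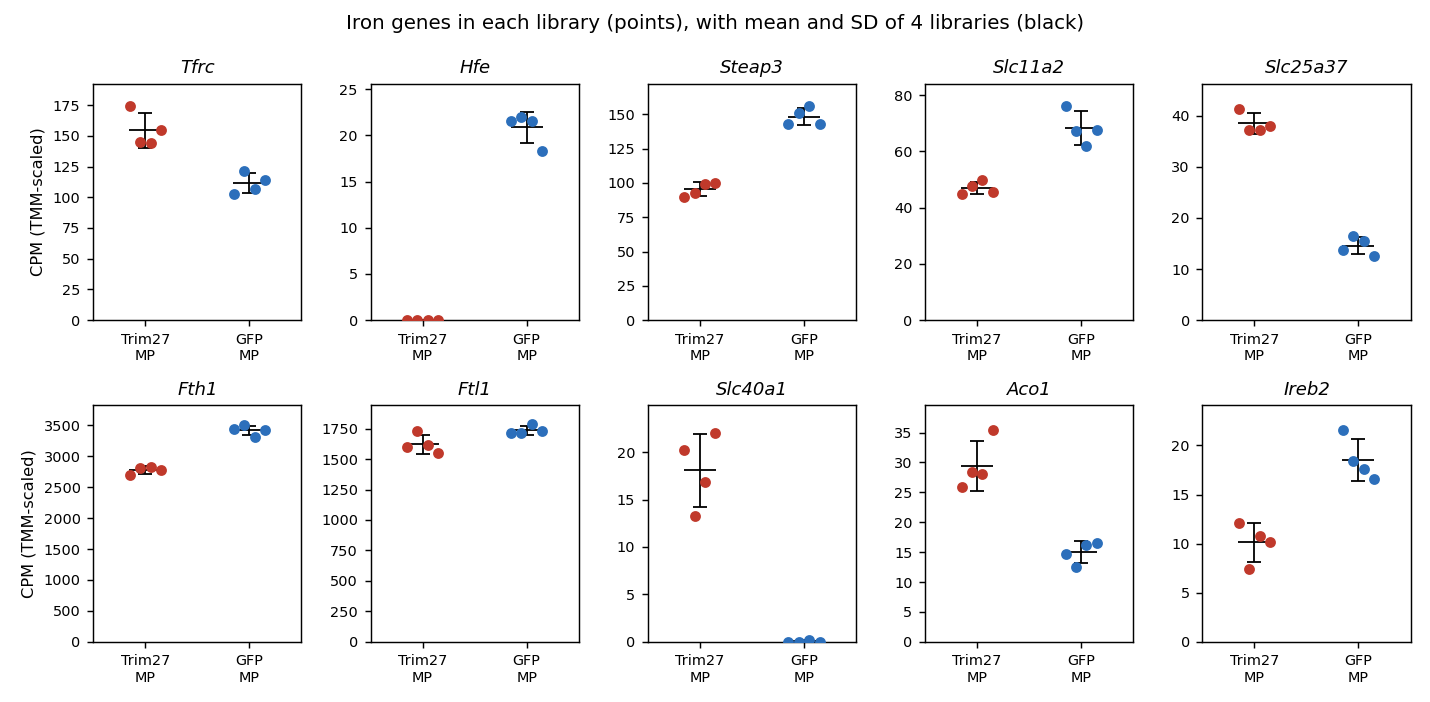
TMM-scaled CPM (y axis, from 0, with its own scale in each panel) of the 10 iron genes in each of the 4 Trim27 MP libraries (red) and the 4 GFP MP libraries (blue), with the mean and SD of each group in black. Hfe is at 0 in every Trim27 library, Slc40a1 is at 0 in 3 GFP libraries, and only Ftl1 has groups that overlap.

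Genes of uptake from transferrin did not all change in one direction. Tfrc, the transferrin receptor that brings iron-loaded transferrin into the cell, was at 174.8, 144.8, 144.0 and 154.9 CPM in Trim27 replicates 1 to 4, against 102.8, 121.4, 107.0 and 114.1 CPM in GFP replicates 1 to 4. Every Trim27 library lay above every GFP library, with Trim27 replicate 1 the highest. The log2 fold change was 0.47 (SE 0.07, edgeR quasi-likelihood adjusted p = 1.07e-07), a 1.39-fold rise, but it was -0.20 (adjusted p = 0.0061) when the trend of each library with exon length was removed, and 0.47 when that trend was fitted on abundant genes only. Tfrc has 5196 bases of exon, and the median change of genes of 4000 to 8000 bases was 0.56, above that of Tfrc. Among genes of 6 to 8 log2 CPM, which had a median change of -0.17, 80.3% had a lower log2 fold change than Tfrc.

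Hfe, an MHC class I-like protein that binds the transferrin receptor and takes part in iron sensing, was counted in GFP MP only. It had 0 counts in each of the 4 Trim27 libraries, against 189, 207, 180 and 178 counts in GFP replicates 1 to 4, or 20.9 ± 1.72 CPM (SD, n = 4). Against a floor of 3 counts over the 4 Trim27 libraries it was at least 438-fold lower in Trim27 MP (adjusted p = 6.85e-19), or at least 219-fold lower if both reads of each pair were counted. Of the genes from 2 to 4 log2 CPM, 0.103% had a lower fitted log2 fold change. Hfe overlaps no exon of another gene in GENCODE M21.

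Steap3, the reductase of the endosome that turns ferric into ferrous iron, was at 89.9, 92.7, 99.5 and 99.98 CPM in Trim27 replicates 1 to 4, against 143.2, 150.8, 156.4 and 143.2 CPM in GFP replicates 1 to 4. All Trim27 libraries were lower, and the log2 fold change was -0.64 (SE 0.06, adjusted p = 2.06e-11), a 1.55-fold fall. Slc11a2, the divalent metal transporter that carries ferrous iron out of the endosome and, in the gut, from the lumen, was at 44.9, 47.7, 49.8 and 45.7 CPM in Trim27 replicates 1 to 4, against 76.3, 67.4, 61.9 and 67.4 CPM in GFP replicates 1 to 4. Again no Trim27 library reached the lowest GFP library, and the log2 fold change was -0.54 (SE 0.07, adjusted p = 1.11e-07). With the length trend removed the falls were larger, -1.35 for Steap3 and -1.25 for Slc11a2, and with library size alone they were -0.33 and -0.23 and still passed. Slc11a2 shares 94 exonic bases with Gm5475 on the opposite strand, which had no count in any library.

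Slc25a37, mitoferrin 1 of the inner mitochondrial membrane and a main supplier of iron for heme in erythroid cells, was at 41.5, 37.3, 37.3 and 38.1 CPM in Trim27 replicates 1 to 4, against 13.8, 16.4, 15.5 and 12.5 CPM in GFP replicates 1 to 4. The groups lay far apart beside their spread, with a log2 fold change of 1.40 (SE 0.10, adjusted p = 2.45e-13), a 2.65-fold rise that was 0.86 (log2) with the length trend removed. Its relative Slc25a28, mitoferrin 2, which most tissues use, went the other way and fell by 1.75 on the log2 scale (SE 0.09, adjusted p = 1.77e-16), at 15.2 ± 1.57 CPM in Trim27 MP and 51.1 ± 2.41 CPM in GFP MP. As CPM per kilobase of exon, Slc25a37 was at 9.23 ± 0.477 and Slc25a28 at 9.90 ± 1.03 in Trim27 MP, where their ranges overlapped, and Slc25a37 at 3.49 ± 0.413 and Slc25a28 at 33.3 ± 1.57 in GFP MP (SD, n = 4 each), where they did not. Exons of Slc25a37 overlap 381 bases of Gm31748 and 92 bases of Gm27223 on the opposite strand, and neither is a row of the table. The 19 erythroid markers in the table were led, by the mean over all 8 libraries, by Klf1, Car2 and Nfe2. Their summed level was lower in Trim27 MP, at 2326 to 2540 CPM, than in GFP MP, at 2842 to 2877 CPM. Of the markers 8 rose and 11 fell. The lower sum rested in large part on Klf1, with a mean of 502 CPM in Trim27 MP and 911 CPM in GFP MP. On the log2 scale Klf1 changed by -0.86, whereas Car2 (0.26) and Nfe2 (0.34) rose. The sum therefore does not show a lower level of the markers as a set. The part of erythroid cells in the rise of Slc25a37 was not tested.

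**Figure D2:**
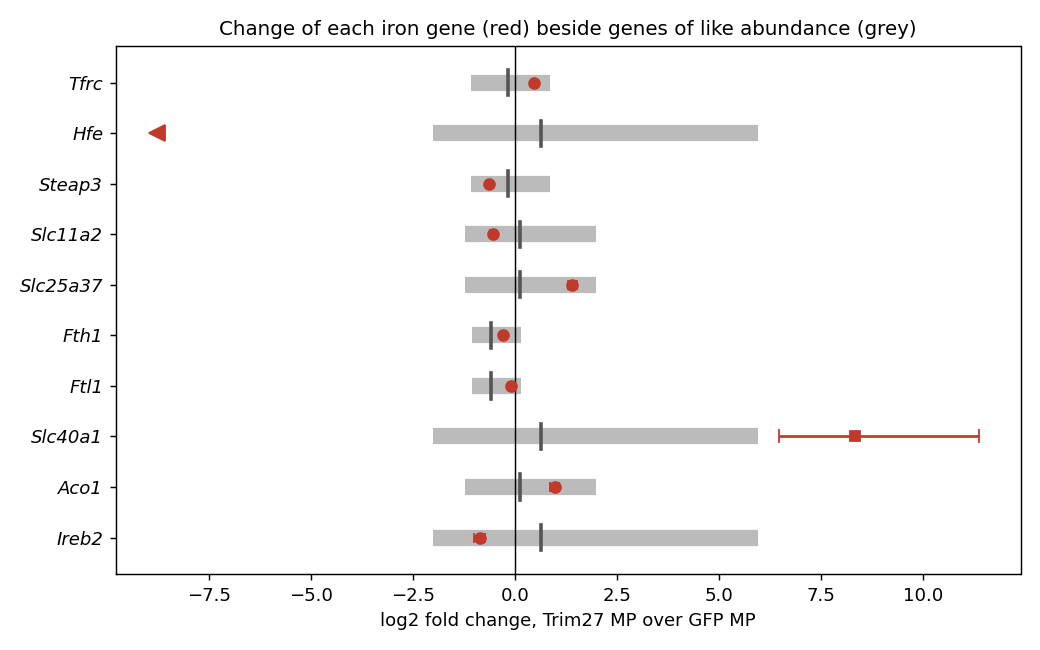
Log2 fold change of Trim27 MP over GFP MP (x axis) for each iron gene: red circles are fitted values with SE, the triangle is the bound for Hfe (at least 438-fold lower), and the square is the count ratio of Slc40a1 with its 95% counting interval. Grey bars run from the 10th to the 90th percentile of all tested genes in the same range of abundance and dark ticks mark their median, so that only Hfe and Slc40a1 lie outside the grey bars.

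Ferritin, the shell of heavy and light chains that stores iron, was the most abundant product of the set by far. Fth1, the heavy chain with ferroxidase activity, was at 2698, 2818, 2826 and 2781 CPM in Trim27 replicates 1 to 4, against 3437, 3502, 3320 and 3427 CPM in GFP replicates 1 to 4. Every Trim27 library was lower and the log2 fold change was -0.30 (SE 0.04, adjusted p = 7.2e-08), but it was 0.005 (adjusted p = 0.904) with library size alone, -0.06 (adjusted p = 0.0739) when only genes of at least 6 log2 CPM were fitted and -0.035 (adjusted p = 0.331) when the length trend was taken from those abundant genes. The change was smaller than the median at this abundance, since the 133 genes above 10 log2 CPM had a median log2 fold change of -0.60 and 81.2% of them fell.

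Ftl1, the light chain that helps the iron core to form, was at 1598, 1728, 1614 and 1548 CPM in Trim27 replicates 1 to 4, against 1712, 1713, 1785 and 1730 CPM in GFP replicates 1 to 4. The groups overlapped through Trim27 replicate 2. The log2 fold change of -0.10 (SE 0.04, adjusted p = 0.0386) passed the threshold narrowly. It did not pass under 10 of 21 alternatives, among them DESeq2 size factors (-0.07, adjusted p = 0.141), upper-quartile factors (-0.05, adjusted p = 0.289) and the fits without GFP replicate 3 (-0.09, adjusted p = 0.111), GFP replicate 4 (-0.10, adjusted p = 0.0706) or Trim27 replicate 4 (-0.10, adjusted p = 0.0523). Under 4 more it became a rise, with library size alone (0.21, adjusted p = 2.01e-05), among abundant genes only (0.14) and with either length trend removed (0.24 and 0.49). The related row Ftl2 rose, with 311 counts over the Trim27 libraries and 22 over the GFP libraries, against 102719 and 62838 for Ftl1, and reads shared between them cannot be told apart.

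The ratio of the chains within a library does not depend on scaling. Fth1 counts were 1.69, 1.63, 1.75 and 1.80 times those of Ftl1 in Trim27 replicates 1 to 4, against 2.01, 2.04, 1.86 and 1.98 times in GFP replicates 1 to 4. The ratio was lower in every Trim27 library, by a mean log2 difference of -0.20. Tfrc counts divided by Fth1 counts gave 0.0557 ± 0.00641 in Trim27 MP and 0.0325 ± 0.00201 in GFP MP (SD, n = 4 each), again without overlap and with a mean log2 difference of 0.77. With the length trend removed, however, Tfrc and Fth1 both had negative log2 fold changes, -0.20 and -0.30, so that most of the difference between them was gone. With the trend of abundant genes removed instead, Tfrc was at 0.47 and Fth1 at -0.035, so that more of the difference remained. Tfrc counts divided by Slc40a1 counts gave 8.62, 10.9, 8.55 and 7.05 in Trim27 replicates 1 to 4, against 447.5 in GFP replicate 3, while the other GFP libraries had no Slc40a1 count to divide by. These ratios are descriptions without a test, and they do depend on exon length where it moves with the group.

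**Figure D3:**
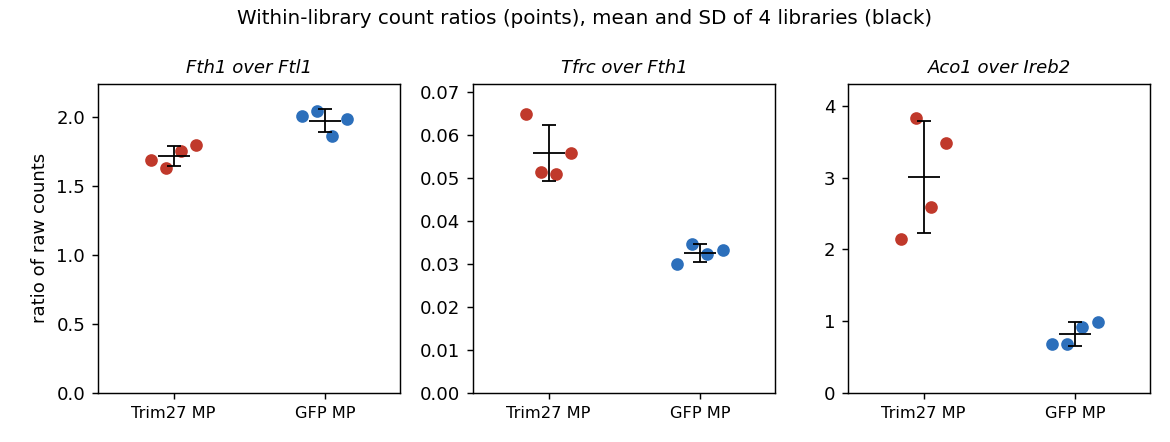
Ratio of raw counts of paired iron genes within each library (y axis, from 0), for the 4 Trim27 MP libraries (red) and the 4 GFP MP libraries (blue), with mean and SD in black. Fth1 over Ftl1 is lower in every Trim27 library, and Tfrc over Fth1 and Aco1 over Ireb2 are higher.

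Slc40a1, ferroportin, the known exporter of iron from vertebrate cells, was counted almost only in Trim27 MP. It had 337, 220, 305 and 259 counts in Trim27 replicates 1 to 4, or 18.1 ± 3.87 CPM (SD, n = 4), against 2 counts in GFP replicate 3 and 0 counts in the other GFP libraries. The ratio of Trim27 MP over GFP MP was 322 (95% counting interval 88.9 to 2660, adjusted p = 4.68e-17). Of the genes from 2 to 4 log2 CPM, 95.8% had a lower fitted log2 fold change. Ferroportin is abundant in macrophages that recycle iron. Of 15 macrophage markers in the table only Emr1 and C1qb had any count, and their summed level was 9.69 to 11.9 CPM in Trim27 MP, all of it Emr1, and 0 to 0.957 CPM in GFP MP, all of it C1qb. C1qa, C1qc, Mrc1, Marco, Cd163, Vcam1, Siglec1, Timd4, Mertk, Cd5l, Spic, Vsig4 and Clec4f had no count in any library. Hepatocytes, which make transferrin and store iron, were represented by 4 of 12 markers, led by Afp and Apoa1, summing to 15.1 to 17.6 CPM in Trim27 MP and 1.20 to 1.70 CPM in GFP MP, with Alb, Apob, Ttr, Ahsg, Fga, Fgb, Serpina1a and Hnf4a at 0. The part of such cells in the rise of Slc40a1 was not tested.

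The iron-regulatory proteins moved in opposite directions. Aco1, which is iron-regulatory protein 1 without its iron-sulfur cluster and cytosolic aconitase with it, was at 25.9, 28.4, 28.1 and 35.5 CPM in Trim27 replicates 1 to 4, against 14.7, 12.4, 16.3 and 16.5 CPM in GFP replicates 1 to 4. It was higher in every Trim27 library, most in replicate 4, with a log2 fold change of 0.97 (SE 0.12, adjusted p = 1.24e-08), a 1.96-fold rise that was 0.46 (adjusted p = 0.000723) with the length trend removed. Ireb2, iron-regulatory protein 2, whose protein is degraded when iron is plentiful, was at 12.1, 7.40, 10.8 and 10.2 CPM in Trim27 replicates 1 to 4, against 21.6, 18.4, 17.6 and 16.6 CPM in GFP replicates 1 to 4. It was lower in every Trim27 library, with a log2 fold change of -0.87 (SE 0.15, adjusted p = 3.05e-06), 1.83-fold lower, and -1.59 with the length trend removed. Counts of Aco1 were 3.01 ± 0.779 times those of Ireb2 in Trim27 MP and 0.819 ± 0.164 times in GFP MP (SD, n = 4 each), a mean log2 difference of 1.86, so the order of the pair by raw counts was opposite in the 2 groups.

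Levels between genes were compared as CPM per kilobase of exon. In Trim27 MP the order was Fth1 (1785 ± 37.4), Ftl1 (1675 ± 78.8), Tfrc (29.8 ± 2.76), Steap3 (16.9 ± 0.882), Slc25a37 (9.23 ± 0.477), Slc11a2 (8.20 ± 0.386), Aco1 (7.69 ± 1.09), Slc40a1 (5.37 ± 1.15) and Ireb2 (1.76 ± 0.343), with Hfe at 0. In GFP MP it was Fth1 (2196 ± 48.3), Ftl1 (1792 ± 35.6), Steap3 (26.3 ± 1.14), Tfrc (21.4 ± 1.57), Slc11a2 (11.9 ± 1.04), Hfe (5.84 ± 0.482), Aco1 (3.91 ± 0.483), Slc25a37 (3.49 ± 0.413) and Ireb2 (3.21 ± 0.377), with Slc40a1 at 0.0177 ± 0.0355 (all SD, n = 4). Neighbours overlapped for Fth1 and Ftl1 and for Slc11a2 and Aco1 in Trim27 MP, and for Aco1, Slc25a37 and Ireb2 in GFP MP. The order of Tfrc and Steap3 was opposite in the 2 groups. So was that of Slc25a37 and Slc11a2, but only after division by exon length, since Slc11a2 was higher by CPM in both groups. Since the change between groups followed exon length, an order across genes of unlike length is less certain than a comparison of 1 gene between groups.

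**Figure D4:**
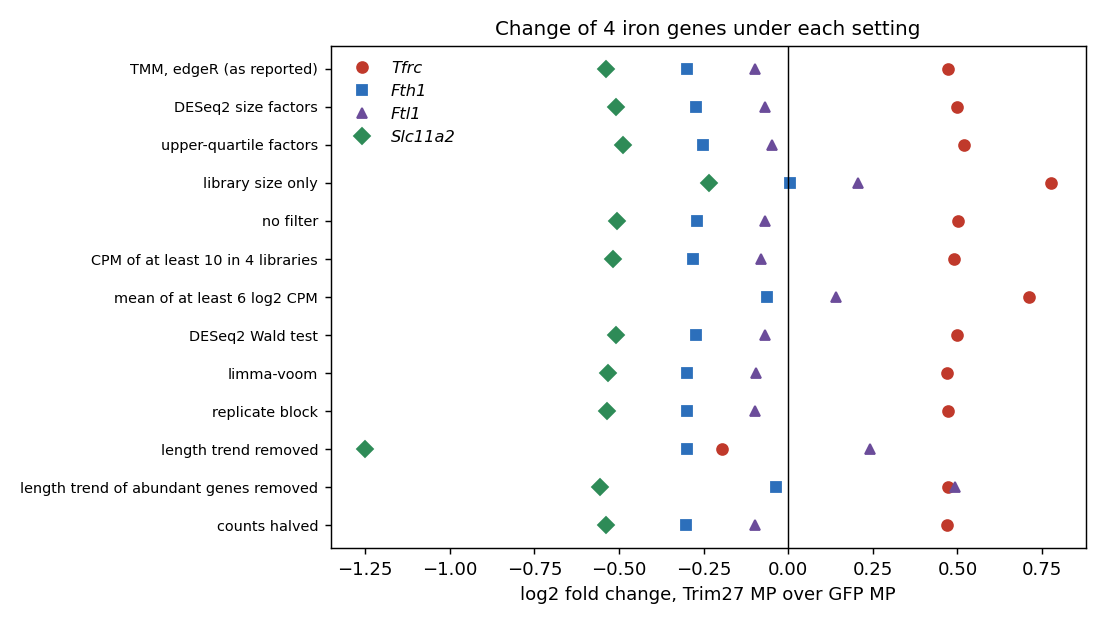
Log2 fold change of Trim27 MP over GFP MP (x axis) for Tfrc, Fth1, Ftl1 and Slc11a2 under each way of scaling, filtering or testing (rows), with the reported fit in the top row. Slc11a2 stays below 0 in the 12 rows that hold it, Tfrc is above 0 except with the length trend removed, where it is -0.20, and Fth1 and Ftl1 lie near or across 0 in several rows.

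Among 36 other genes of iron uptake, storage, export and regulation, 19 could be tested, of which 9 (47.4%) rose, 5 (26.3%) fell and 5 missed the threshold (median log2 fold change 0.17), where 47.5% of all genes rose and 38% fell. Removing the length trend left 8 rises and 9 falls, where 4385 of all 11040 genes rose and 4891 fell. With library size alone 13 rose and 3 fell, where 6277 of all genes rose and 3106 fell. Ncoa4, the receptor that takes ferritin to the lysosome, had 510 counts over the Trim27 libraries and 2 over the GFP libraries, a ratio of 146 (95% counting interval 40.3 to 1212, adjusted p = 2.16e-14). Fbxl5, the adaptor through which Ireb2 protein is degraded, was at 29.4 ± 3.82 CPM in Trim27 MP and 5.49 ± 2.12 CPM in GFP MP (log2 fold change 2.42, SE 0.18, adjusted p = 6.5e-12). Herc2, a large ubiquitin ligase that acts on Ncoa4 protein, was at 22.7 ± 2.81 CPM in Trim27 MP and 48.2 ± 2.55 CPM in GFP MP and fell by 1.09 on the log2 scale (SE 0.09, adjusted p = 6.88e-12).

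Snx3, a sorting nexin that recycles the transferrin receptor, was at 222.7 ± 6.09 CPM in Trim27 MP and 114.3 ± 1.80 CPM in GFP MP (log2 fold change 0.96, SE 0.05, adjusted p = 1.13e-16). Mon1a, linked in mouse macrophages to the movement of ferroportin to the cell surface, was at 11.04 ± 1.97 CPM in Trim27 MP and 52.4 ± 3.82 CPM in GFP MP (log2 fold change -2.26, SE 0.11, adjusted p = 1.65e-17). Tfr2, the second transferrin receptor, was at 58.2 ± 3.59 CPM in Trim27 MP and 62.6 ± 2.52 CPM in GFP MP and did not pass (-0.11, adjusted p = 0.155), but it passed as a fall with the length trend removed (-0.55, adjusted p = 3.72e-08) and as a rise with library size alone (0.20, adjusted p = 0.00937). Lcn2, a carrier of siderophores, did not pass either (0.17, adjusted p = 0.507), but it passed as a rise with the length trend removed (0.53, adjusted p = 0.0347) and with the trend of abundant genes removed (0.79, adjusted p = 0.00316). Of the other members of the list, 14 had no count in any library, among them hepcidin (Hamp), ceruloplasmin (Cp), hephaestin (Heph) and duodenal cytochrome b (Cybrd1), which were named after their values were seen.

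Genes that handle heme iron moved both ways. Of 17 listed, 11 could be tested, of which 4 (36.4%) rose, 6 (54.5%) fell and 1 missed the threshold (median -0.58 on the log2 scale), where 47.5% of all genes rose and 38% fell. Both biliverdin reductases, which act after heme oxygenase, fell. Blvrb was at 632.5 ± 62.3 CPM in Trim27 MP and 1474 ± 55.9 CPM in GFP MP (-1.22, SE 0.06, adjusted p = 5.8e-17), and Blvra was at 40.9 ± 1.60 CPM in Trim27 MP and 84.2 ± 3.34 CPM in GFP MP (-1.05, SE 0.07, adjusted p = 1.27e-14). The heme transporter of endosomes Slc48a1 fell by 0.95 on the log2 scale (SE 0.04, adjusted p = 5.9e-18) and the hemoglobin scavenger haptoglobin (Hp) by 1.15 (SE 0.07, adjusted p = 3.77e-15). The efflux pump Abcg2, which can carry porphyrins, was at 118.9 ± 3.09 CPM in Trim27 MP and 28.5 ± 2.45 CPM in GFP MP (2.06, SE 0.07, adjusted p = 9.16e-21), and Slc46a1, a folate transporter first described as a heme carrier, rose by 2.47 (SE 0.17, adjusted p = 6.66e-14). Abcb10 was at 50.4 ± 0.625 CPM in Trim27 MP and 47.3 ± 2.92 CPM in GFP MP and did not pass (0.09, adjusted p = 0.243), but it passed as a rise with library size alone (0.40, adjusted p = 1.93e-05) and as a fall with the length trend removed (-0.47, adjusted p = 1.78e-06). Heme oxygenase 1 (Hmox1), the inducible enzyme that frees iron from heme, had no count in any of the 8 libraries. Heme oxygenase 2 (Hmox2) was at 39.4 ± 1.73 CPM in Trim27 MP and 65.0 ± 3.81 CPM in GFP MP (SD, n = 4 each). It fell by 0.72 on the log2 scale (SE 0.07, edgeR adjusted p = 2.9e-10), and it shares 892 exonic bases with Cdip1 on the opposite strand.

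Iron-sulfur cluster assembly genes, which use mitochondrial iron, mostly fell. All 31 listed genes could be tested, and 20 (64.5%) fell, against 38% of all genes, 7 (22.6%) rose and 4 missed the threshold (median -0.57 on the log2 scale). With library size alone 18 fell and 11 rose, where 3106 of all 11040 genes fell and 6277 rose. Removing the length trend gave 23 falls and 7 rises, where 4891 of all genes fell and 4385 rose. The share of falls among all genes was itself higher at higher abundance. At 4 to 6 log2 CPM 8 of 12 listed genes fell, against 38% of all genes there, at 6 to 8 log2 CPM 9 of 14, against 52.6%, and at 8 to 10 log2 CPM 3 of 4, against 64%. Glrx5, a glutaredoxin that passes clusters on, was at 127.8 ± 3.84 CPM in Trim27 MP and 267.6 ± 7.81 CPM in GFP MP (-1.07, SE 0.05, adjusted p = 7.51e-18). Bola1 (-1.62), Fam96b (-1.56) and Bola2 (-1.41), which overlaps Slx1b on the opposite strand, fell too. Ciapin1, an electron carrier of cytosolic cluster assembly, was at 107.9 ± 4.83 CPM in Trim27 MP and 27.1 ± 3.16 CPM in GFP MP (1.997, SE 0.08, adjusted p = 1.16e-19). Isca1 (0.08, adjusted p = 0.289) and Narfl (-0.07, adjusted p = 0.407) did not pass, but both passed as rises with library size alone (0.39 and 0.24), Isca1 also with the trend of abundant genes removed (0.24), and Narfl as a fall with the length trend removed (-0.39).

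**Figure D5:**
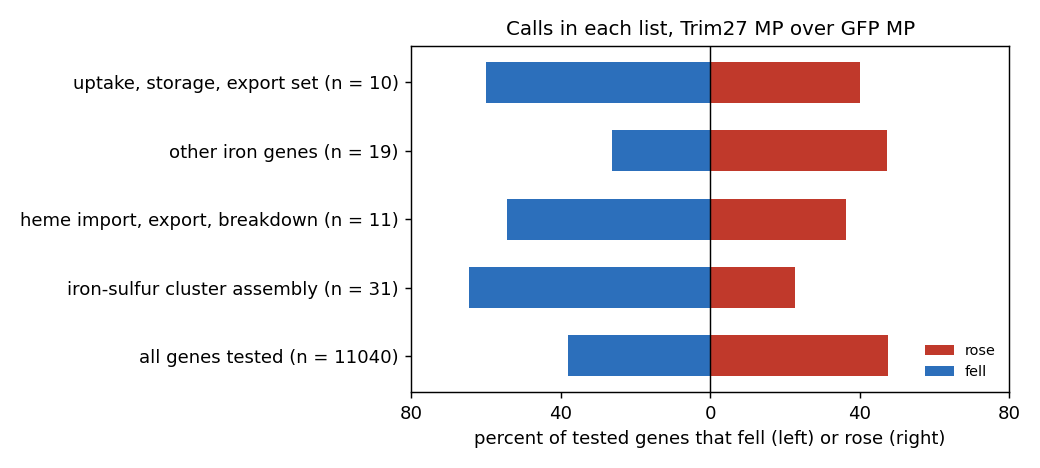
Percent of tested genes that fell (blue, left) or rose (red, right) in Trim27 MP over GFP MP at an adjusted p under 0.05, for the 10 iron genes, 3 wider lists and all 11040 genes tested. Iron-sulfur cluster genes have the largest share of falls in the plot, 64.5% against 38% of all genes. With library size alone 18 of 31 fell, beside 3106 of all 11040 genes. With the length trend removed 23 of 31 fell, beside 4891 of all 11040 genes.

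Of 5 other genes listed as carriers of an iron-responsive element in their mRNA, 4 could be tested, of which 3 rose and 1 fell. Among all genes 47.5% rose and 38% fell. Of the 3 that rose only Alas2 had a match to the pattern searched, and none was found in the transcripts searched for Cdc14a and Cdc42bpa. Alas2, the first enzyme of heme synthesis in erythroid cells, was at 37.2 ± 3.48 CPM in Trim27 MP and 8.91 ± 2.92 CPM in GFP MP (2.06, SE 0.15, adjusted p = 5.06e-12), and it overlaps Apex2 on the opposite strand. The phosphatase gene Cdc14a had 685 counts over the Trim27 libraries and 8 over the GFP libraries, and Cdc42bpa, a kinase gene, was at 6.68 ± 0.788 CPM in Trim27 MP and 1.82 ± 0.537 CPM in GFP MP (1.87, SE 0.24, adjusted p = 3.75e-08).

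Set beside the hairpins printed above, the genes with a 5′ match did not share a direction. Slc40a1 and Alas2 rose, Fth1 fell, and Ftl1 was at -0.10, a value that turned to a rise under 4 alternatives. The fall of Fth1 was lost under 3 of 21 alternatives, library size alone among them. Of all genes with a match of this pattern in the 5′ region, 14 could be tested, of which 5 rose, 7 fell and 2 missed the threshold (median -0.08 on the log2 scale), with 85.5% of all genes called. Of those with a match in the 3′ region, 69 could be tested, of which 49 (71%) rose, 15 fell and 5 missed the threshold (median 0.88). These 3′ genes had a median of 4410 bases of exon, and among all tested genes of 4000 to 8000 bases 58.3% rose. Most such matches are not known elements, and the part of length in this count was not tested.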

How the data were processed

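The authors deposited raw read counts per gene symbol, a column per library. The tools bcl2fastq, HISAT2 and featureCounts and the build NCBIM37 are listed, without versions, in the submitters' processing notes. The annotation release and the treatment of multimapping reads are not stated there. Libraries were made with a Nextera XT kit, per the labels' protocols, which marks no strand. Reads from exons that overlap on opposite strands therefore cannot be told apart. Whether such reads were counted or left out is not stated. A line with no gene name (0 counts) was left out. Of counts from 1 to 10, 64.7% to 72.0% were even, so both reads of a pair may have been counted. Intervals and floors, which cover counting error only, would then be too narrow.

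Counts were filtered by filterByExpr (minimum count 10, minimum total 15), scaled by TMM and tested across all genes with edgeR 4.0.16 in R 4.3.3 (robust quasi-likelihood F test, 2-sided, Benjamini-Hochberg, threshold 0.05), with limma 3.58.1 and DESeq2 1.42.0 as alternatives. The fits were tested on simulated counts. Exon lengths and hairpin sites came from GENCODE M21, and 98.42% of genes had a length. Fitted folds and SE are not given where a group held 8 counts or fewer. The genes and lists were chosen with earlier results of these data known. All 10 genes are named, with up to 6 called and 2 uncalled genes of smallest p from each wider list. Hmox2 is named beside Hmox1 and not by its p. Flvcr1, Flvcr2, Hbb-b1, Hbb-b2 and Adgre1 were not analysed here under these symbols, and Emr1 stands for Adgre1. Some listed genes that the rule would name are not reported here.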

Additional observations from a re-analysis of the deposited data

Results flagged for a closer look

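Among 37 named genes, 73 groups of 4 libraries were examined for a library far from the other 3, and 5 were found. For normally distributed values chance gives about 1 in 20. Hfe in GFP replicate 4 was at 18.3 CPM, below 21.5 to 22.0 CPM in the other GFP libraries. Slc40a1 was at 0.239 CPM in GFP replicate 3 and 0 in the others, and Ncoa4 was at 0.213 CPM in GFP replicate 2 and 0 in the others, which in each case is 2 counts. A group with 0 in all libraries but 1 is always flagged, so the rate above does not hold for these 2 genes. Hp was at 111.7 CPM in GFP replicate 3, above 100.9 to 102.3 CPM. Isca1 was at 70.2 CPM in Trim27 replicate 1, above 60.0 to 61.3 CPM, and without that library its log2 fold change was -0.003, against 0.08 with it.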

How the results depend on the processing

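Hfe, Slc40a1, Slc11a2, Slc25a37, Steap3, Aco1 and Ireb2 kept their direction and stayed past the threshold under every alternative that held them. Of the 10 genes, Tfrc, Steap3, Fth1 and Ftl1 pass a minimum mean of 6 log2 CPM, where 1145 of all genes rose and 1125 fell, 2 iron genes rose and 1 fell, and of the wider lists 12 rose and 17 fell (23 and 32 without it). With at least 10 CPM in 4 libraries, 3453 genes rose. Library size alone gave 0.005 for Fth1, 0.21 for Ftl1, 0.20 for Tfr2 and 0.24 for Narfl. With the length trend removed Tfrc was at -0.20, Ftl1 at 0.24, Abcb10 at -0.47 and Isca1 at -0.081. With the trend of abundant genes removed Ftl1 was at 0.49 and Narfl at 0.019, and among abundant genes only Ftl1 was at 0.14. Isca1 ranged from -0.003 (without Trim27 replicate 1) to 0.109 over the fits that leave out a library. The cause was not tested. Leaving out each library gave 5100 to 5351 rises and 4118 to 4334 falls, with 4 rises and 5 to 6 falls among the 10 genes.

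With the replicate number as a block 5133 genes rose and 4027 fell, and of the 10 genes 4 rose and 5 fell, Ftl1 no longer passing (-0.10, adjusted p = 0.0879). Same-numbered libraries deviated from their group means with correlations of -0.035 to 0.021, and not every library correlated best with its own number. These values cannot settle whether same-numbered libraries share an animal or culture, which the labels do not give. Without division by length, Slc11a2 ranked above Slc25a37 in Trim27 MP, and Ireb2 above Aco1 and Slc25a37 in GFP MP. Depth limits Slc40a1 in GFP MP and Hfe in Trim27 MP, whose folds rest on 3 counts or fewer.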

Other observations

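Trf, the gene of transferrin itself, had 38 counts over the Trim27 libraries and 0 over the GFP libraries, too few to be tested, and it shares 2108 exonic bases with Gm20425 on the same strand. Slc11a1, a metal transporter of phagosomes, had 76 counts over the Trim27 libraries and 0 over the GFP libraries. Fam132b, which encodes erythroferrone, the erythroid hormone that lowers hepcidin, had 79 counts over the Trim27 libraries and 2 over the GFP libraries. These 3 genes were picked for mention after their values were seen.

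The 10 iron genes together took 0.529% to 0.537% of all counts in the Trim27 libraries and 0.493% to 0.506% in the GFP libraries. These are shares of library size without TMM scaling, and most of each share was Fth1 and Ftl1. With TMM scaling both were lower in Trim27 MP. Fth1 was at 2780.7 ± 58.3 CPM there and 3421.5 ± 75.2 CPM in GFP MP, and Ftl1 at 1621.8 ± 76.3 and 1735 ± 34.5 CPM (SD, n = 4 each).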
